A study of Homo sapiens with 32 samples.

Results

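The regions described here are stretches of DNA that the K562 library placed in uracil-enriched regions and that no non-treated HCT116 library did. They were chosen from the region files themselves: every base of chromosomes 1 to 22 in the K562 file and in none of the 6 files of single non-treated HCT116 libraries was kept, adjacent bases were joined, and intervals of 1 kb or more were retained. This gave 10874 intervals with 19.0 Mb, out of 124831 K562 regions with 308.4 Mb on these chromosomes and of 1917332 regions in the 15 files of single libraries. The contrast of K562 with non-treated HCT116 therefore defined the members, and their presence in one and absence from the other is a description and carries no test.

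Uracil enters DNA when dUTP is used in place of dTTP, or when cytosine loses its amino group, and uracil-DNA glycosylase (UNG) normally removes it. In U-DNA-Seq, a catalytically inactive, FLAG-tagged UNG that still binds uracil (ΔUNG) pulls down uracil-containing fragments, and their coverage is divided by that of the input DNA. A region is a stretch of bins of 100 bp in which the coverage of enriched over input DNA, as a log2 ratio, lies above a limit set for each library. K562 is a leukaemia line of erythroid and myeloid character, and HCT116 is a colorectal carcinoma line that lacks mismatch repair (MMR).

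K562 was represented by 1 enriched library of wild-type, non-treated cells (WT_K562), without the UNG inhibitor protein UGI. The non-treated HCT116 cells were of 3 kinds with 2 libraries each. WT_HCT116 cells carried no transgene. NT_UGI_HCT116 cells expressed UGI together with EGFP after retroviral transduction and sorting, and NT_UGI_HCT116MMR cells did so in a derivative whose MMR is restored by an added chromosome 3. The 8 drug-treated libraries, which took no part in the choice of the members, came from UGI-expressing cells with and without MMR, 2 libraries for each condition. For 48 h they received either 5FdUR (5-fluoro-2′-deoxyuridine, at 20 µM) or RTX (raltitrexed, at 100 nM), agents that block thymidylate synthase and so raise dUTP against dTTP. K562 thus differed from most of the HCT116 libraries in the absence of UGI as well as in cell line, and with 1 library it has no replicate of its own. Region files hold no expression values, so the identity of the cells could not be checked against markers.

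Region bases of K562 were comparable in amount to those of HCT116, where the 6 libraries held 311 to 321 Mb. The lowest region value was 0.33 (log2) in K562 and 0.25 to 0.33 in the HCT116 libraries, because the authors tuned this limit library by library. Before the limit on length there were 52286 K562-only intervals with 34.2 Mb, and 41412 of them were shorter than 1 kb. Just outside the limit lay 1778 intervals of 900 bp, and just inside it 1468 intervals of 1000 bp. The median member was 1500 bp long, with quartiles at 1200 and 2000 bp, and 111 members reached 5 kb.

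The following stretches of 200 bases, read from the plus strand of GRCh38, show what kind of sequence the members hold. Each lies at the middle of its member, and the capitals mark G and C. The first is from the longest member, the next from the member with the lowest GC content among the 100 longest, and the last from the longest member that was also covered in all 8 drug-treated libraries.
Longest member, chr21:10064501-10064700: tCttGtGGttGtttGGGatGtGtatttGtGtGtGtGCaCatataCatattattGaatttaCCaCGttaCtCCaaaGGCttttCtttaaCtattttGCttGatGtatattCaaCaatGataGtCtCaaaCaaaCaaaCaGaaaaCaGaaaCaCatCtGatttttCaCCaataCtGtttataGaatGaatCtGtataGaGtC
Most AT-rich long member, chr2:77671351-77671550: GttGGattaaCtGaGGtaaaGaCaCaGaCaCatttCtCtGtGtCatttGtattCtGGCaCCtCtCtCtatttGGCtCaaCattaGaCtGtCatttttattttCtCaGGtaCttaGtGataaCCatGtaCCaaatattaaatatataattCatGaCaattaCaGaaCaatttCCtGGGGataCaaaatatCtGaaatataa
Member covered after both drugs, chr15:48881701-48881900: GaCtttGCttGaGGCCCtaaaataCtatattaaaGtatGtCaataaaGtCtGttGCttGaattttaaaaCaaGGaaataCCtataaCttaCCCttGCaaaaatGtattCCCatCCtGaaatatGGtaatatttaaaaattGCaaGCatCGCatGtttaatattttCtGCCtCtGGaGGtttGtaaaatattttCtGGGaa
G and C made up 31.5%, 32% and 31% of these stretches, and 31.5%, 29% and 37.8% of the whole members they come from.

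The number of members was no larger than what single HCT116 libraries gave when treated in the same way. For each of the 7 non-treated libraries, bases present in that library and in none of the other 6 were collected by the same rule. The comparison is not symmetric, because an HCT116 library was set against its own replicate, other HCT116 libraries and K562. K562 was set against another cell line only. Bases that HCT116 libraries had in common were thus removed from their sets, whereas no second K562 library removed bases from the members. The HCT116 libraries gave 6618 to 15655 such intervals with 10.5 to 28.5 Mb, so the 10874 members and 19.0 Mb of K562 lay inside the HCT116 range. As a share of a library's own region bases, the members made up 6.16% in K562, against 3.37% to 9.04% in the HCT116 libraries. NT_UGI_HCT116 replicate 2 gave the most library-only intervals and NT_UGI_HCT116 replicate 1 the fewest, so the 2 replicates of one condition stood at both ends. NT_UGI_HCT116 replicate 2 stood apart from the other 5 HCT116 libraries in several measures given below. Without it the HCT116 range was 6618 to 11585 intervals and 10.5 to 19.9 Mb, which still held the K562 values. The 111 members of at least 5 kb compared with 17 to 165 such intervals in the 6 HCT116 libraries, and with 17 to 68 without that replicate.

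K562 also shared its region bases with HCT116 about as widely as HCT116 libraries shared theirs with each other. Of the K562 region bases, 57.4 Mb or 18.6% were present in all 6 HCT116 libraries. These bases lie in every non-treated library, so the amount is the same 57.4 Mb for each HCT116 library by definition. It made up 17.9% to 18.4% of their bases, and these shares differ only through the total region bases of each library. This step therefore does not compare K562 with HCT116, and the comparison rests on bases found in fewer libraries. K562 bases held by exactly 5 HCT116 libraries came to 49.2 Mb, and an HCT116 library shared 48.4 to 56.0 Mb with exactly 5 of its 6 counterparts. At each step from 1 to 4 other libraries, K562 also stayed inside the range of the 6 HCT116 libraries.

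Most members bordered enrichment found in HCT116 rather than standing alone. A non-treated HCT116 region began or ended directly at the border of 7272 members (66.9%), and the HCT116 library-only intervals had such a neighbour in 62.8% to 72.1%. In 3716 members (34.2%) the interval was a whole stretch of K562 regions, against 29.2% to 38.3%. At least 5 kb separated 1175 members from any non-treated HCT116 region, and at least 50 kb separated 133. The corresponding HCT116 counts were 465 to 2141 and 23 to 252. Without NT_UGI_HCT116 replicate 2 they were 465 to 1301 and 23 to 92, so that the 133 distant members of K562 exceeded the other 5 libraries. Of member bases, 0.518% lay in the authors' 3 merged region files of the same HCT116 conditions, which touched 451 members. The merged files pool the same 6 libraries that the members had to be absent from. Little overlap was therefore largely set by the choice of members.

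The K562 regions that hold members were of moderate enrichment. Their median log2 value was 0.42, with quartiles at 0.39 and 0.47 and a highest value of 0.80. The median lay 0.09 above the lowest value of the K562 file, whereas library-only intervals of HCT116 lay 0.07 to 0.08 above theirs. All regions of the K562 file also stood further above their limit, with a median excess of 0.05 against 0.04 in 5 HCT116 libraries and 0.05 in NT_UGI_HCT116 replicate 1. In 17 members the region value was under 0.34, just above the limit, and in 1535 it was 0.5 or more.

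Members were AT-rich, though less so than enrichment common to both lines. GC content was 36.5% over the member bases and 36.4% to 37.0% in the 6 HCT116 library-only sets. A pair of further sets served for comparison: the core, meaning K562 bases present in all 6 non-treated HCT116 libraries (18162 intervals of 1 kb or more, 48.0 Mb), and the HCT116 core absent from K562 (3624 intervals, 6.45 Mb). Their GC contents were 31.4% and 32.2%, and known autosomal sequence had 41.0%. K562 bases shared with 1 to 5 HCT116 libraries had 33.8%, between the core and the members. The ratio of observed to expected CpG was 0.188 in the members, within 0.175 to 0.194 of the HCT116 sets, and 0.241 over the autosomes.

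Protein-coding gene bodies held 44% of member bases, close to the 45.3% of autosomal sequence, while the core had 28.7% and the HCT116 core absent from K562 had 25.9%. Exons took 2.72% of member bases and 3.79% of the autosomes. Promoters, counted as 1 kb before the start of a protein-coding gene, took 0.170% against 0.671%. All of these member values fell inside the ranges of the HCT116 library-only sets, which were 42.9% to 46.8% for gene bodies, 1.73% to 2.90% for exons and 0.0920% to 0.211% for promoters.

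Repeated sequence was where the K562 members stood apart from the library-only intervals of every HCT116 library. Segmental duplications are long blocks present at several places of the genome in nearly identical form, and they are dense beside the centromeres of several chromosomes. Each 100 bp bin was therefore searched for a second exact copy on either strand of GRCh38, a measure added after the member positions had been seen. A second copy existed for 5.01% of member bins, against 1.24% to 1.72% of the bins of the 6 HCT116 sets, 0.678% of the core and 4.89% of the autosomes. Members with copies of more than 50% of their bins numbered 337 (3.10%), and HCT116 sets had 43 to 86 such intervals. The share in members remained above all 6 HCT116 sets with no minimum length (3.64% against 1.23% to 1.74%). It did so for intervals of at least 5 kb (30.9% against 0.371% to 4.05%), for those at least 5 kb from other libraries' regions (21.8% against 2.17% to 2.58%), and with all 7 libraries held to a region value of at least 0.33 (4.08% against 1.18% to 1.62%). The size of the share was not stable. It fell to 2.55% when only the 2 WT_HCT116 files were excluded, and to 3.98% without chromosomes 9 and 22. With 1 non-treated library left out it was 4.24% to 4.51%. No HCT116 values stand beside these last settings.

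The mostly copied members differed in shape from the others. They were longer, with a median of 2500 bp against 1400 bp, and 260 of 337 (77.2%) were whole stretches of K562 regions, against 3456 of 10537 (32.8%). Only 80 (23.7%) bordered an HCT116 region directly, against 68.3% of the others. They supplied 78 of the 133 members at least 50 kb from any non-treated HCT116 region, and the other 55 lay within the 22 to 251 counted for HCT116 intervals that were not mostly copied. Region values were alike in both, with medians of 0.41 and 0.42. Chromosome 9 held 83 of them, chromosome 2 held 49 and chromosome 1 held 37. The authors removed reads that map equally well to several places and drew up a blacklist for each cell line, and the libraries were sequenced on platforms with different read lengths. The part of these steps in the difference was not tested, and cell line, library and any such step cannot be told apart with 1 K562 library.

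The 10 longest members showed the same feature. The longest, 11.2 kb at chr21:10059001-10070200, lay in a region of log2 value 0.47 and overlapped an annotated processed pseudogene. It had 31.5% GC, and 76.8% of its bins had a second copy. It was longer than any library-only interval of HCT116, the longest of which was 9.1 kb. Members of 10.1 kb followed at chr15:21457701-21467800 and chr16:33727501-33737600, with copies of 72.3% and 64.4% of their bins. Of the 10 longest, 7 were mostly copied, 8 were whole stretches of K562 regions and 9 overlapped no protein-coding gene. The exception was an 8.2 kb member at chr10:88826501-88834700 inside ANKRD22, a gene for an ankyrin repeat protein, with 300 exonic bases and the rest intronic. This member had no copied bin, and drug-treated HCT116 libraries covered it to 24.4% to 51.2% after 5FdUR and to 47.6% to 100% after RTX. Among members that were not mostly copied it was the longest, and HCT116 sets reached 6.6 to 9.1 kb there.

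Ranked by the value of the K562 region, the 10 highest members lay in regions of value 0.69 to 0.80. Each value belongs to the whole region, of which 9 of these members were only a part, so it is not the enrichment of member bases alone. Among them was a member of 2.5 kb at chr5:34388701-34391200, in a region of 9100 bp with a value of 0.79. Only 1 of these 10 members was a whole K562 region, the 4.5 kb at chr2:90281801-90286300 with a value of 0.71, and the other 9 bordered an HCT116 region directly. One protein-coding gene was overlapped by the 10, NEGR1, which encodes a neuronal cell adhesion protein, by 1.0 kb of intron at chr1:72113801-72114800.

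Windows of 1 Mb placed the concentration of members at named segments. The chr9:41000001-42000000 window held 73.1 kb of members in 22 intervals, while no HCT116 library had more than 13 kb of library-only bases there. Second was chr2:87000001-88000000 with 62 kb against at most 10.8 kb, and then chr21:13000001-14000000 with 49 kb against at most 11.3 kb. Next were chr9:40000001-41000000 with 38.4 kb and chr15:21000001-22000000 with 37.1 kb, against at most 4.6 and 2.7 kb. These 5 windows had second copies for 38.5% to 81.3% of their bins. They held multicopy genes such as POTED, POTEB, FOXD4L6, CNTNAP3B, PLGLB1 and RGPD1. Whether reads were exchanged between copies was not tested. The most library-only bases that any HCT116 library had in a window was 48.7 kb. Over all 2765 windows, 13.4% gave K562 a higher share of its library-only bases than any HCT116 library had of its own, and K562 led in 370 windows where HCT116 libraries led in 326 to 433, so such windows were not more frequent in K562.

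Non-treated HCT116 libraries had regions in all 5 windows, while cover after the drugs differed from window to window. In the chr2:87000001-88000000 window, K562 regions covered 8.42% of the known bases and non-treated HCT116 regions 1.06% to 3.05%, but 5FdUR-treated HCT116 regions covered 13.5% to 20.6% and RTX-treated ones 4.14% to 7.27%. In the chr9:41000001-42000000 window, K562 regions covered 16.2% and non-treated HCT116 regions 5.68% to 8.10%, with 8.60% to 21.0% after 5FdUR and 0.341% to 2.94% after RTX. In the other 3 windows cover ran from 0% to at most 10.7% after 5FdUR, and RTX regions covered at most 1.02% of the chr9:40000001-41000000 window and 0% of the windows on chromosomes 21 and 15. Over the 149 windows in which at least 20% of bins were copied, K562 regions covered 3.20% and non-treated HCT116 regions 2.17% to 2.37%. In the remaining 2616 windows the order was not the same, with 11.6% in K562 and 11.8% to 12.2% in HCT116. The copied windows held 1.06 Mb of members, or 5.58% of member bases, where the HCT116 sets had 1.17% to 1.49%.

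Along the chromosomes, the share of K562 region bases that fell in members was highest on chromosome 22 (13.7%), chromosome 15 (13.2%) and chromosome 9 (11.9%). It was lowest on chromosome 13 (3.94%), chromosome 4 (4.65%) and chromosome 8 (5.48%). Chromosomes 9 and 22 are joined in K562 by the BCR-ABL1 translocation. On chromosome 9 the share passed all 6 HCT116 values, which ran from 4.19% to 11.7%, and 23.1% of its member bins had a second copy. Of all member bases, however, chromosome 9 held 4.65%, within the 4.19% to 4.68% of the library-only bases in the HCT116 sets. On chromosome 22 the HCT116 range was 6.60% to 25.5%, and on chromosome 15 it was 5.28% to 16%, so both K562 shares lay inside. On the scale of member bases, chromosome 15 held 3.52% and passed the HCT116 range of 2.07% to 2.81%. On that scale K562 lay above all 6 HCT116 sets on 6 of 22 chromosomes (1, 2, 5, 7, 15 and 21) and below all 6 on 6 others (3, 12, 13, 14, 18 and 20). Single HCT116 libraries were the highest of the 7 on 1 to 5 chromosomes and the lowest on 0 to 4. Such extremes were thus not confined to K562, and the counts were not tested. The low shares on chromosomes 13, 4 and 8 were also inside their HCT116 ranges, which reached down to 2.48%, 2.94% and 2.89%.

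Among 19111 autosomal protein-coding genes, 13.3% (2551 genes) held member bases, and library-only intervals of HCT116 touched 9.15% to 16.6%. The share rose with gene length in both lines. Members were found in 85.4% of the 309 genes of 500 kb or more, where HCT116 sets reached 77.0% to 94.2%, and in 0.690% of the 4786 genes under 10 kb, against 0.460% to 0.857%. LRP1B, which encodes a giant lipoprotein receptor relative and lies in a common fragile site, held the most member bases, 41.9 kb in 20 intervals or 2.21% of the gene. K562 regions covered 42.0% of LRP1B and non-treated HCT116 regions 30.5% to 39.6%. CNTNAP2, a neurexin family gene, followed with 41.6 kb in 20 intervals, and DLG2, encoding a synaptic scaffold protein, with 37.8 kb in 23. KCNIP4, for a potassium channel interacting protein, had 32 kb and PRKG1, for a cGMP-dependent protein kinase, had 31.6 kb.

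The other 10 genes with most member bases were GALNTL6, LRRC4C, TBC1D5, CCSER1, MAGI2, CTNNA3, HMCN1, EXOC4, CTNNA2 and NRXN3, with 22.2 to 28.6 kb each. HMCN1, which encodes the matrix protein hemicentin, had the highest share of the 15, 5.19% of its length, and HCT116 library-only intervals took 1.07% to 3.15% of it. For DLG2 the member share of 1.74% lay within the HCT116 range of 0.409% to 2.53%.

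Smaller genes with a high share of member bases were covered in a few blocks. KCNJ13, an inwardly rectifying potassium channel gene, had 5.8 kb or 53.9% of its 10.8 kb in 3 members, and one of these held 1313 exonic bases. K562 regions covered 64.8% of KCNJ13 and non-treated HCT116 regions 0% to 20.4%. In drug-treated HCT116 libraries, its 3 members were covered to 13.6% to 100%, 0% to 100% and 9.09% to 100% after RTX, and to at most 9.09%, 35.7% and 4.55% after 5FdUR, so the drugs overlapped in the middle one. TIGD4, a gene derived from a transposable element, had a single member of 4.4 kb, 42.4% of its length. GIMD1, coding for a GTPase domain protein, had 33.4% of its length in members, but non-treated HCT116 regions also covered up to 49.6% of the gene at other bases. SEC22B, a gene of vesicle transport, had 30.8%, and 50.4% of its own bins have a second copy, so its value is uncertain. ZNF181, a zinc finger gene, had 25.8%, and no non-treated HCT116 library had a region in it. ANKRD22 (25.7%), LOX (25.6%), GBP1 (24.5%), ABHD10 (24.4%) and C4orf33 (23.6%) came next, followed by LIPN, PRKAA1, OR1B1, TM4SF18 and SNRPG with 18.6% to 21.4%. LOX encodes lysyl oxidase, GBP1 an interferon-induced guanylate-binding protein and PRKAA1 a catalytic subunit of AMP-activated protein kinase.

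Genes tied to the blood character of K562 held members about as often as library-only intervals of HCT116 touched them. Of 35 erythroid and globin genes, 4 (11.4%) held a member, close to the 13.3% of all genes, and HCT116 library-only intervals touched 2 to 5. The 4 included HBD, for the delta globin chain, and HBE1 and HBG2, for embryonic and fetal globin chains, whose annotated extents share 1 member of 1000 bp at chr11:5324101-5325100. These extents run over 237308 bp for HBE1 and 252418 bp for HBG2, where the median gene of the list has 31.7 kb. The same interval thus counts for both genes. It held 197 exonic bases, but whether it lies near their globin coding sequence was not examined. Both extents also enter the summed length of the list. In HBD the member of 1.1 kb at chr11:5234701-5235800 took 10.02% of the gene, and HCT116 sets reached 16.2%. Summed over the erythroid list, members took 0.196% of gene length, below the 0.220% to 0.919% of the HCT116 sets. Of 33 blood cell genes, 5 (15.2%) held a member, also close to 13.3%, against 1 to 7 in HCT116 sets. CD33, a myeloid surface receptor gene, had the highest share, 9.04%, followed by IKZF1 with 1.98%, PTPRC with 1.43% and MEIS1 with 0.712%.

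Intestinal epithelial genes, listed for the colorectal origin of HCT116, held members in 5 of 37 (13.5%), close to the 13.3% of all genes and against 3 to 6 in the HCT116 sets. Members took 1.07% of their summed length, above the 0.432% to 0.773% of the HCT116 sets. CFTR, the chloride channel gene, supplied most of it, with 7 members and 13.2 kb, or 3.08% of the gene. TSPAN8 had 8.4 kb in 5 members, while SLC26A3 and SI had 1 member each.

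Long genes at fragile sites and adhesion genes were hit as widely as in HCT116. Members lay in 27 of 30 long fragile site genes, and HCT116 sets touched 27 to 29. Their summed member share of 1.05% lay within 0.600% to 1.15%, with IMMP2L at 2.23%, LRP1B at 2.21%, PARD3B at 2.05% and CNTNAP2 at 1.80%. Of 40 cadherin and synaptic adhesion genes, 23 held members against 21 to 25, and CDH10 led them with 2.47%, ahead of CNTN6, CNTN1 and CDH6.

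Olfactory receptor genes held members in 27 of 415, more than the 10 to 21 of the 6 HCT116 sets. Their summed member share was 1.45%, inside the HCT116 range of 0.522% to 1.54%. OR5M10 lay wholly within a member of 3.6 kb at chr11:56576701-56580300, in a K562 region of value 0.50, and OR4A47 and OR2B3 lay in members to 97.6% and 91.6%. Zinc finger genes named ZNF held members in 43 of 503, against 22 to 59. Keratin and keratin-associated genes held none in 149, and HCT116 sets touched 0 to 6. The share was 6.51% for olfactory receptor genes, whose median length is 2.5 kb, beside 0.690% of all genes under 10 kb, 8.41% of those of 10 to 100 kb and 13.3% of all genes. It was 8.55% for ZNF genes, whose median length is 26.1 kb. These shares were set side by side without a test.

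Drug-treated HCT116 libraries, whose values were not used in the choice, covered members less than autosomal sequence as a whole and more than the core. Covered shares of member bases were 5.24% and 7.12% in the 5FdUR_UGI_HCT116 replicates and 7.27% and 14.7% in the 5FdUR_UGI_HCT116MMR replicates. After RTX they were 9.32% and 8.95% in RTX_UGI_HCT116 and 13.4% and 10.1% in RTX_UGI_HCT116MMR. Every one of these values was below the library's cover of known autosomal sequence, which ran from 17.6% to 19.7%. The core was covered to 0.682% to 7.12% and the HCT116 core absent from K562 to 0.640% to 6.59%.

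As log2 of the covered share over the library's autosomal share, members stood at -1.02 ± 0.48 (SD, n = 8) and the core at -2.76 ± 1.10. Members were higher in 8 of 8 libraries, by 1.74 on average with a range of 0.83 to 2.94, and the two-sided exact sign-flip permutation test gave an adjusted p of 0.0156 over 4 tests. Against the HCT116 core absent from K562 (-2.94 ± 1.01) the difference was 1.92, again in 8 of 8 libraries, with an exact permutation test adjusted p of 0.0156. The unadjusted p of 0.00781 is the smallest that 8 pairs can give. Both cores had to be present in all 6 non-treated HCT116 libraries, and the members had to be absent from them. The paper reports different uracil patterns in drug-treated and non-treated cells. The order of members and cores may therefore follow from how the sets were chosen, and these tests cannot separate the 2. With members and core limited to intervals of at least 5 kb, the difference from the core was 0.34 and was no longer called (exact permutation test, adjusted p = 0.305). The difference was not particular to K562: in each drug-treated library the member share lay inside the range of the HCT116 library-only sets.

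The members' cover did not pass the test for a difference by drug or by MMR status. On the log2 scale relative to the autosomes, 5FdUR libraries had -1.17 ± 0.62 and RTX libraries -0.87 ± 0.28 (SD, n = 4 each), a difference of -0.31 with an adjusted p of 0.343 in the two-sided exact permutation test. MMR proficient libraries had -0.75 ± 0.45 and MMR deficient libraries -1.29 ± 0.36, a difference of 0.55 with an exact permutation test adjusted p of 0.152. With drug-treated regions held to a log2 value of at least 0.27, the difference between the drugs was -0.88 and passed the threshold (exact permutation test, adjusted p = 0.0381). In the regions as deposited the pooled groups overlapped in both comparisons, and 4 against 4 libraries allow no p below 0.0286. Within each drug, however, both MMR proficient libraries lay above both MMR deficient ones. For 5FdUR they stood at -1.301 and -0.309 against -1.780 and -1.306. For RTX they stood at -0.468 and -0.906 against -0.948 and -1.139. The permutation test of MMR status pooled the drugs and did not take this order into account. The 5FdUR libraries ranged more widely, from the lowest to the highest cover of all 8.

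Single member bins in which the drugs did not overlap were mostly higher after RTX. In bins of 1 kb, every RTX library exceeded every 5FdUR library in 3.5% of all 2756368 autosomal bins and in 584 of 20119 member bins (2.90%). The reverse order occurred in 1.82% of all bins and in 25 member bins (0.124%). This count rested on single libraries, reaching 158 (0.785%) without 5FdUR_UGI_HCT116 replicate 1, 62 without 5FdUR_UGI_HCT116 replicate 2 and 56 without 5FdUR_UGI_HCT116MMR replicate 1. HCT116 library-only sets had 2.49% to 3.32% and 0.107% to 0.429%, so the members did not stand outside them. Every MMR proficient drug-treated library exceeded every MMR deficient one in 0.138% of all bins and in 24 member bins (0.119%), and the reverse held in 0.392% of all bins and in 15 member bins (0.0746%).

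By single members, 5727 (52.7%) had no base in a region of any of the 8 drug-treated libraries. Absence from the non-treated HCT116 libraries was set by the rule. No counts for HCT116 library-only sets or for autosomal intervals of like length stand beside those given here. They are therefore not read as a trait of the members. At least 1 drug-treated library covered 3848 members (35.4%) to 50% or more. Mostly copied members met a drug-treated region in 120 of 337 (35.6%) and the others in 5027 of 10537 (47.7%). In all 8 drug-treated libraries, 4 members were covered to 50% or more. The longest was 2.4 kb of intron at chr15:48880601-48883000 in SHC4, a gene for a signalling adaptor, shown above as the last sequence. Another was 1.5 kb at chr2:168925701-168927200 in ABCB11, the bile salt export pump gene, with 45 exonic bases. The remaining pair, 1.8 kb at chr8:100361801-100363600 and 1.3 kb at chr2:158873001-158874300, overlapped no protein-coding gene.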

How the data were processed

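U-DNA-Seq regions of 15 enriched libraries were analysed; input samples and pull-downs without sensor were not used here. The authors aligned reads to GRCh38 with BWA 0.7.17-r1194, flagged duplicates in Picard, used SAMtools 1.9-50, and filtered out ambiguous alignments and, for each cell line, blacklisted segments. They computed coverage in bins of 100 bp with smoothing over 5000 bp in deepTools 3.2.1, so members of 1 kb are shorter than the smoothing span. The deposited log2 value of a region was taken to be the region's mean enrichment over input on the log2 scale; the column has no heading. In 7 further files the authors had pooled the replicates of a condition; these served as alternatives. Depth is not recorded in region files, so no counting interval is given and the spread between libraries is the only measure of precision. Replicates were biological per the methods.

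Files were read as bins of 100 bp with Python 3.11.15, NumPy 2.4.6, numba 0.67.0 and matplotlib 3.10.9, and genes were taken from GENCODE release 44. Named loci and genes were the 10 longest members, the 10 of highest K562 value, the 5 windows of 1 Mb with most member bases, the longest of those covered in all drug-treated libraries, the 15 genes with most member bases, the 15 of at least 10 kb with the highest member share, and up to 4 genes of each list. Drug cover was compared by two-sided exact permutation tests with Benjamini-Hochberg adjustment over 4 tests and calls at 0.05. The bin count was tested on simulated data. Members and gene lists were chosen with earlier results of these data known. A gene and a sequence that these rules select are not reported here.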

Additional observations from a re-analysis of the deposited data

Results flagged for a closer look

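In 37 groups of 4 to 10 values, chance would mark about 1 in 20, and 5 values stood far from the others of their group. All 5 belonged to the library-only intervals of NT_UGI_HCT116 replicate 2, one of the HCT116 libraries that served as the measure for K562, and they overlap in what they count. This library had 165 library-only intervals of at least 5 kb, against 17 to 68 in the other 5 HCT116 libraries, and none of the 165 was mostly copied. At least 50 kb from the regions of other non-treated libraries it had 252, of which 251 were not mostly copied, against 23 to 92 and 22 to 86. Exons made up 1.73% of its library-only bases, against 2.57% to 2.90%. Ranges without this library are given beside the counts of long and distant members.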

How the results depend on the processing

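The members depend on the limits that define them. Without a minimum length there were 52286 intervals with 34.2 Mb (11.1% of K562 region bases), 50 bins higher after 5FdUR and 949 higher after RTX. With a minimum of 5 kb there were 111 intervals with 0.654 Mb (0.212%), 35.4% GC, 30.7% in gene bodies, and 0 and 9 such bins, and the difference from the core was 0.34 (exact permutation test, adjusted p = 0.305 over the 3 tests left). The difference from the HCT116 core absent from K562 could not be calculated at 5 kb, because a library covered none of that core. K562 regions of at least 0.40 gave 7175 intervals and 363 bins higher after RTX. HCT116 regions of at least 0.33 alone left 26.2 Mb (8.50%). The 3 merged files in place of the 6 gave 22977 intervals with 43.8 Mb (14.2%), 36.0% GC, and 49 and 1299 bins; the 2 WT_HCT116 files gave 30289 with 60.8 Mb (19.7%), 35.3% GC, and 48 and 1612 bins. At 5 kb or more from HCT116 regions, 1175 members remained with 2.46 Mb (0.799%), 36.8% GC, 38.6% in gene bodies, and 2 and 81 bins. Bins wholly within members numbered 10 and 255. Without mostly copied members, an alternative chosen after seeing the data, 45.7% of bases lay in gene bodies. The share of member bins with a second copy moved in 14 recalculations and stayed in place in 2. It was 2.55% with the 2 WT_HCT116 files, 3% with the 3 merged files and 3.98% without chromosomes 9 and 22. With drug-treated regions of at least 0.27, the difference of 5FdUR from RTX was -0.88 (exact permutation test, adjusted p = 0.0381), past the threshold. Fewer files to exclude, or stricter limits, change the counts by construction; the cause of the shift at 0.27 was not tested.

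With 1 non-treated library left out in turn there were 12868 to 13418 intervals, 22.7 to 23.9 Mb, 7.37% to 7.74% of K562 region bases, 36.3% GC in all 6, 43.7% to 44.5% in gene bodies, 25 to 31 and 688 to 746 bins. The share of member bins with a second copy was 4.24% to 4.51%. The drug differences then ran from -0.36 to -0.32 for 5FdUR minus RTX, from 0.53 to 0.58 for MMR status, from 1.65 to 1.69 for the core and from 1.71 to 1.82 for the HCT116 core. With 1 drug-treated library left out they were -0.60 to -0.11, 0.39 to 0.73, 1.57 to 1.87 and 1.76 to 2.06, with no call gained or lost, and bins numbered 27 to 158 and 603 to 816. The count of 158 was reached without 5FdUR_UGI_HCT116 replicate 1, 62 without 5FdUR_UGI_HCT116 replicate 2 and 56 without 5FdUR_UGI_HCT116MMR replicate 1. Replicate numbers did not pair the drug-treated libraries, since replicate differences in 100 kb bins correlated from -0.28 to 0.21 between conditions. With the replicate block, the differences of -0.31 and 0.55 had adjusted p of 0.375 and 0.167 in exact sign-flip permutation tests. The unadjusted p of 0.125 for MMR status is the smallest that this blocked sign-flip test can give. It lies above the threshold of a call, so the blocked tests could call neither difference and decide nothing about them. For each drug and replicate number, the MMR proficient library lay above the MMR deficient one. Of 255 recalculations, 198 left direction and call, or the value, in place, and none turned a direction. The blocked tests are among the 198, although they could make no call. Bases and shares counted as in place within the SD of the 6 HCT116 sets, which was 6.06 Mb for member bases. Counts did so within a fixed factor, so that 13418 intervals in place of 10874 were still counted as in place.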
